A study of Rattus norvegicus with 15 samples.

Results

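The voltage-gated sodium, calcium and hyperpolarization-activated (HCN) channel genes were followed in the rat subfornical organ. Members were all genes whose symbol, carried alone by a probe set, begins with Scn and a digit, Cacna, Cacnb, Cacng or Hcn and a digit, with the sodium-sensing gene Scn7a left out. The rule gave 38 genes on 54 of the 31099 probe sets of the array, and it used no measured value apart from the choice of 1 probe set a gene, the one with the highest mean over all 15 arrays. Of the 38 genes, 25 lay above the filter on dim probe sets and were tested among 11514 genes in all.

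RNA of the subfornical organ came from male Sprague Dawley rats aged 10 to 12 weeks, and each of 15 Affymetrix arrays carried a pool from 5 animals. There were 5 arrays (25 animals) each of water-deprived, food-deprived and control rats. Food deprivation lasted 48 h per the labels, which name the water-deprived and control groups but give no duration or treatment details for them. The series' design text can be read as denying food to all 3 groups. The length of water deprivation is not given in the sources used here, pooling hides the spread between animals, and every p-value below measures only the spread between pools.

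The subfornical organ is a small midline structure with a leaky blood-brain barrier, whose neurons sense blood osmolality, sodium and circulating hormones such as angiotensin II and drive thirst. The channels followed here set the firing of such neurons: sodium channels carry the upstroke of the action potential, calcium channels couple firing to transmitter release and gene expression, and HCN channels carry an inward current on hyperpolarization that supports rhythmic firing. Each pore-forming alpha subunit of the sodium and high-voltage-activated calcium channels works with auxiliary subunits that alter its gating and its delivery to the membrane.

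Values are signal intensities on the linear scale deposited by the authors, which had already been scaled to a common mean on each array, and differences are on the scale of log2(signal + 16), so that they understate the change of dim genes. A gene is said to have passed the test at an adjusted p under 0.05 over all probe sets tested. Levels of different genes were not set against each other, since probe sets differ in brightness. Of 3 comparisons, only food deprivation against control held channel genes that passed: Scn10a, Scn4b and Cacng4 were higher in food-deprived rats, and none of these differences passed once a division of the arrays by the 5′ over 3′ signal ratio of control probe sets was in the fit. Scn10a and Cacng4 had control means under the level of the filter on dim probe sets and passed it through their higher arrays. No channel gene passed between water deprivation and control or between water and food deprivation. Hcn2 was the one channel gene whose water-deprived and food-deprived arrays did not overlap, and its difference did not pass (adjusted p = 0.137). Over all genes, such a lack of overlap was seen higher in 1.36% and lower in 1.81%.

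The promoters of Scn10a and Scn4b are shown because these genes had the smallest p-values among the channel genes in food deprivation against control. Both lie on rat chromosome 8 (RefSeq, build GRCr8), Scn10a at chr8:128340249-128340548 on the minus strand and Scn4b at chr8:54343623-54343922 on the plus strand, and each sequence runs 5′ to 3′ from 250 bases before to 50 bases after the annotated start. Capitals mark the single match to a searched motif.
Scn10a: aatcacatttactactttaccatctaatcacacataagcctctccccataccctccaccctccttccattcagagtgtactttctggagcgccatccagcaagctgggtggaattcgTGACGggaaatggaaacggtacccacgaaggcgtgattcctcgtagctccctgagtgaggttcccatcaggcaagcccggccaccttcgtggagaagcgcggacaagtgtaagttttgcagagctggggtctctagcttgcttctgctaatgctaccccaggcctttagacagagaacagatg
Scn4b: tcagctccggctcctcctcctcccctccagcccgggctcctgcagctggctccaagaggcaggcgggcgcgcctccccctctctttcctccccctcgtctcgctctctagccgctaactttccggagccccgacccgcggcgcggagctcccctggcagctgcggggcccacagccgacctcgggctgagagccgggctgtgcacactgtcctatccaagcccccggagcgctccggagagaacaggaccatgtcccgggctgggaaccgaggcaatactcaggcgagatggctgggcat
The motifs searched on both strands were TGACG (the core of the cyclic AMP response element), CCAAT (bound by factor NF-Y), GGGCGG (the GC box) and TATAAA (the TATA box). The Scn10a window held 1 TGACG, 133 bases before the start, and 52.3% G and C. The Scn4b window held none of the 4 motifs in these letters, and 70.0% G and C. Among 33469 promoters of the same length, 21.2% held TGACG, 37.5% CCAAT, 33.1% GGGCGG and 14.2% TATAAA. The table held a promoter for 26 of the 38 channel genes.

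The arrays fell into 2 sets by the ratio of 5′ to 3′ signal of the Actb and Gapdh control probe sets, a measure of how far the labelled RNA reached toward the 5′ end. The high set held every food-deprived array together with arrays 1 and 2 of water deprivation (mean log2 ratio -0.864 to -0.711). The low set held every control with water-deprived arrays 3, 4 and 5 (-2.81 to -1.24). Food deprivation and control thus share no set, and a fit with the set as a term compares them only through the water-deprived arrays. With the term, water deprivation against control rests on water-deprived arrays 3 to 5, and water against food deprivation on water-deprived arrays 1 and 2. Water-deprived array 3 stood apart with the lowest ratio, -2.81, and its signal for Camk2a, a calcium- and calmodulin-dependent kinase gene, was 1350, against 57.8 to 117 on the other 14 arrays. The tissue label could not be tested with markers, since no other tissue was measured. Of 5 listed subfornical organ markers, the 4 with a probe set, Agtr1a, Calcr, Casr and Scn7a, lay above the filter. Their summed signal was 904 to 1061 on water-deprived arrays 3 to 5 and 433 to 476 on arrays 1 and 2, 392 to 512 on food-deprived arrays and 272 (array 2) to 753 on control arrays. In such pools, fewer cells of a type and less RNA per cell cannot be told apart.

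Among the sodium channel alpha subunits, which form the pore, 5 of 8 genes were tested: Scn1a, Scn2a, Scn3a, Scn9a and Scn10a. Scn10a (probe set 1368351_at), known in sensory neurons for a sodium current that resists tetrodotoxin, had signals of 24.6, 28.2, 15.9, 14.8 and 19.6 on water-deprived arrays 1 to 5, of 39.5, 30.1, 33.9, 26.0 and 40.9 on food-deprived arrays and of 14.7, 14.8, 14.7, 14.7 and 20.4 on control arrays. Every food-deprived array was above every control array, while the water-deprived arrays of the high set were above, and those of the low set within, the control range. Food-deprived rats averaged 34.1 ± 6.27 and controls 15.9 ± 2.53 (SD, n = 5 each). Scn10a rose under food deprivation by 0.65 on the log2 scale (SE 0.124, 1.57-fold, adjusted p = 0.00706). With the array set in the fit the difference was 0.28 (adjusted p = 0.654). The control mean lay under the filter level of 18.58.

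Scn3a, an alpha subunit most abundant in the developing brain, had signals of 54.3, 54.6, 172, 109 and 103 on water-deprived arrays, of 58.3, 63.8, 41.1, 92.3 and 75.1 on food-deprived arrays and of 162, 179, 106, 119 and 54.5 on control arrays. Apart from control array 5, every control array was above every food-deprived array. The log2 difference was -0.72 for food deprivation against control (SE 0.296, adjusted p = 0.136), and it was 0.28 with the array set in the fit. Scn9a, known for its part in pain-sensing and neuroendocrine neurons, ranged over 119 to 257 on water-deprived, 164 to 258 on food-deprived and 159 to 391 on control arrays. Its groups overlapped throughout, with differences of -0.30 for water deprivation and -0.18 for food deprivation against control. Scn1a and Scn2a, the main alpha subunits of inhibitory and of excitatory neurons in the forebrain, ranged over 69.5 to 188 and 137 to 251 on food-deprived arrays, against 54.3 to 225 and 97.0 to 273 on control arrays. The lowest adjusted p of these genes in any of the 3 comparisons was 0.748. Scn8a, Scn11a and Scn4a lay below the filter, with no signal above 14.3 on any array.

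All 3 sodium channel beta subunits analysed, single-pass membrane proteins that modulate gating and cell adhesion, were tested. Scn4b (1373188_at), whose intracellular tail can block the open pore and gives rise to a resurgent current, had signals of 69.5, 64.5, 49.8, 43.2 and 44.2 on water-deprived arrays, of 72.7, 64.1, 61.6, 71.9 and 72.8 on food-deprived arrays and of 48.5, 48.4, 42.0, 45.7 and 40.7 on control arrays. The food-deprived arrays all lay above the controls, and so did water-deprived arrays 1 and 2, of the high set, and by a small margin array 3. Food-deprived rats averaged 68.6 ± 5.34 and controls 45.1 ± 3.61 (SD, n = 5 each), and Scn4b rose by 0.47 on the log2 scale (SE 0.113, 1.39-fold, adjusted p = 0.0213). The difference was 0.043 once the array set was in the fit (adjusted p = 0.948), and without control array 3 it no longer passed (adjusted p = 0.051). In water deprivation against control it was 0.19 (SE 0.113, adjusted p = 0.760).

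Scn3b, a beta subunit that binds the pore without a covalent bond, had signals of 413, 312, 1050, 456 and 404 on water-deprived arrays, of 359, 346, 390, 485 and 418 on food-deprived arrays and of 377, 503, 314, 425 and 232 on control arrays. Water-deprived array 3 alone was above all others, and the remaining values overlapped. The log2 difference for water deprivation against control was 0.40 (SE 0.259, adjusted p = 0.774), and it was 0.13 without water-deprived array 3. Scn2b, which is joined to the alpha subunit by a disulfide bond, ranged over 304 to 618 on water-deprived, 354 to 736 on food-deprived and 198 to 833 on control arrays. The controls spanned the whole range of both deprived groups.

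**Figure D1:**
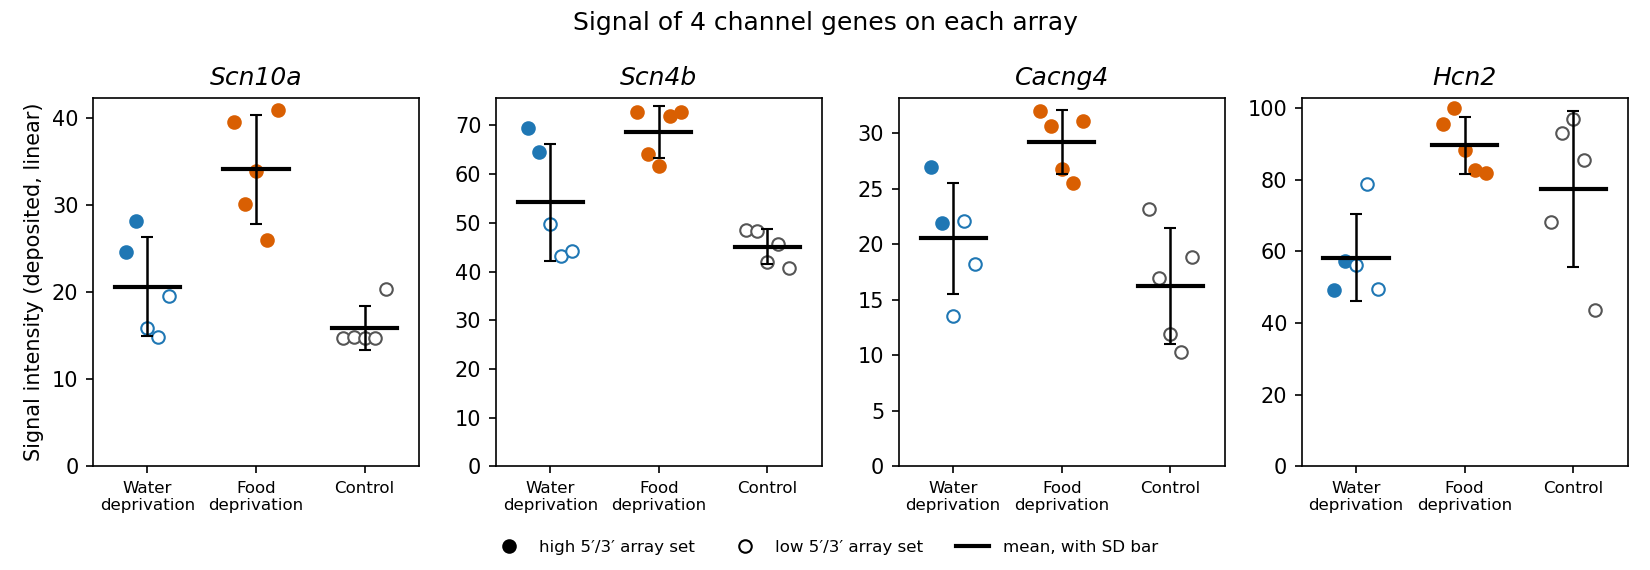
Signal intensity (linear, as deposited) of Scn10a, Scn4b, Cacng4 and Hcn2 on each array of water-deprived, food-deprived and control rats, with filled points for the high and open points for the low 5′/3′ array set, and lines and bars for the mean and SD of 5 arrays. The food-deprived arrays lie above all controls for Scn10a, Scn4b and Cacng4, and the 5 water-deprived arrays lie below all food-deprived arrays for Hcn2.

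L-type calcium channels open at strong depolarization and signal from the membrane to the nucleus, and 2 of 4 genes, Cacna1c and Cacna1d, were tested. Cacna1d, an L-type pore that opens at less depolarized voltages than Cacna1c and supports pacemaking, had signals of 56.8, 35.8, 36.7, 38.9 and 30.5 on water-deprived arrays, of 60.5, 61.2, 48.2, 56.1 and 52.1 on food-deprived arrays and of 43.0, 29.0, 38.4, 46.1 and 36.2 on control arrays. Food-deprived and control arrays did not overlap, and only water-deprived array 1 reached the food-deprived range. The difference was 0.40 for food deprivation against control (SE 0.126, adjusted p = 0.0597) and -0.37 for water against food deprivation (SE 0.126, adjusted p = 0.169). Adding the array set gave 0.14 (adjusted p = 0.856) and -0.22 (adjusted p = 0.651). Without water-deprived array 1, and with no set in the fit, the adjusted p was 0.0286 and 0.0338. Cacna1c ranged over 51.5 to 108 on water-deprived, 61.5 to 71.2 on food-deprived and 55.7 to 76.0 on control arrays. Its group means of 68.7, 66.3 and 65.5 lay within 1 SD of each other. Cacna1f and Cacna1s, known from retina and skeletal muscle, lay below the filter with no signal above 4.90.

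Of the P/Q, N and R-type pores, which drive transmitter release, Cacna1a and Cacna1b were tested and Cacna1e lay below the filter. Cacna1b, the N-type pore, had signals of 74.6, 93.7, 138, 133 and 133 on water-deprived arrays, of 104, 76.1, 126, 127 and 112 on food-deprived arrays and of 175, 144, 122, 197 and 126 on control arrays. The means were 115 ± 28.7, 109 ± 21.0 and 153 ± 32.2 (SD, n = 5 each), with some overlap between controls and either deprived group. The log2 difference was -0.38 for water deprivation against control (SE 0.175, adjusted p = 0.752), where it was the one channel gene with an unadjusted p under 0.05, and -0.43 for food deprivation against control (SE 0.175, adjusted p = 0.132). Adding the array set gave -0.14 and 0.17. A second, dimmer probe set had a difference of 0.12 between food deprivation and control. Both comparisons use the same 5 controls. Cacna1a, the P/Q-type pore, ranged over 23.7 to 38.0 on water-deprived, 24.1 to 42.7 on food-deprived and 21.0 to 46.2 on control arrays.

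T-type channels open near the resting potential and favour burst firing. Cacna1h had signals of 39.6, 33.6, 162, 45.9 and 25.5 on water-deprived arrays, of 32.7, 20.4, 15.6, 28.3 and 20.7 on food-deprived arrays and of 35.0, 38.6, 48.0, 69.1 and 26.2 on control arrays. Water-deprived array 3 stood far above the rest, and only water-deprived array 5 lay within the food-deprived range. The difference between water and food deprivation was 0.76 (SE 0.309, adjusted p = 0.248), and 0.40 without water-deprived array 3. Cacna1i, a T-type pore found mainly in brain, had signals of 46.8, 90.0, 17.2, 26.9 and 30.9 on water-deprived arrays, of 48.6, 54.2, 33.3, 35.9 and 34.8 on food-deprived arrays and of 19.8, 18.6, 39.9, 19.7 and 23.6 on control arrays. Its highest value in water deprivation was on array 2 of the high set, and a single control array lay within the food-deprived range. The difference was 0.44 for water deprivation against control (SE 0.246, adjusted p = 0.757) and 0.034 with the array set in the fit. Cacna1g lay below the filter.

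The alpha2delta subunits, extracellular proteins that raise the number of calcium channels at the membrane and bind gabapentin in the case of Cacna2d1, were both tested. Cacna2d1 ranged over 207 to 434 on water-deprived, 278 to 353 on food-deprived and 212 to 383 on control arrays, with means of 311 ± 89.4, 323 ± 32.8 and 288 ± 65.7 (SD, n = 5 each). Cacna2d3 had signals of 49.9, 35.8, 169, 62.0 and 44.3 on water-deprived arrays, of 43.0, 46.7, 45.7, 48.9 and 60.9 on food-deprived arrays and of 57.6, 60.7, 67.1, 74.6 and 49.7 on control arrays. Water-deprived array 3 was again far above all others. The difference between water and food deprivation was 0.28 (SE 0.252, adjusted p = 0.623), and it changed sign to -0.033 without that array.

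The beta subunits bind the pore from inside the cell and promote its passage to the membrane, and 3 of 4 were tested. Cacnb1, known from skeletal muscle and also present in brain, had signals of 15.8, 25.2, 94.6, 120 and 63.6 on water-deprived arrays, of 49.0, 56.2, 50.4, 47.3 and 18.6 on food-deprived arrays and of 80.4, 86.5, 78.2, 93.9 and 54.7 on control arrays. Within water deprivation, both arrays of the high set were below all 3 arrays of the low set. The difference was -0.44 for water deprivation (SE 0.335, adjusted p = 0.816) and -0.68 for food deprivation (SE 0.335, adjusted p = 0.209), each against control. With the array set in the fit these were 0.18 and 0.87. Cacnb3, abundant in brain, had signals of 52.2, 31.5, 244, 118 and 99.3 on water-deprived arrays, of 74.2, 72.5, 82.3, 81.2 and 69.1 on food-deprived arrays and of 130, 155, 111, 140 and 91.3 on control arrays. Every food-deprived array was below every control, and again the water-deprived arrays split by set. The difference was -0.61 (SE 0.320, adjusted p = 0.244) and, with the array set in the fit, 0.88 (adjusted p = 0.532). Cacnb2, a beta subunit of heart and brain, ranged over 54.4 to 101 on water-deprived, 73.2 to 109 on food-deprived and 60.2 to 95.9 on control arrays. Cacnb4 lay below the filter with signals of 8.57 to 24.7.

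Several gamma subunits, Cacng2, Cacng3, Cacng4, Cacng5, Cacng7 and Cacng8, are best known as partners that traffic and gate AMPA-type glutamate receptors, and 4 of the 8 gamma genes were tested. Cacng4 (1370755_at) had signals of 27.0, 21.9, 13.5, 22.1 and 18.2 on water-deprived arrays, of 32.0, 30.7, 26.8, 25.5 and 31.1 on food-deprived arrays and of 23.2, 17.0, 11.9, 10.3 and 18.9 on control arrays. Every food-deprived array was above every control, and only water-deprived array 1 reached the food-deprived range. Food-deprived rats averaged 29.2 ± 2.88 and controls 16.3 ± 5.25 (SD, n = 5 each), and Cacng4 rose by 0.50 on the log2 scale (SE 0.129, 1.41-fold, adjusted p = 0.0283). With the array set in the fit the difference was 0.24 (adjusted p = 0.734), and after quantile normalization it was 0.37 (adjusted p = 0.0659). It did not pass with any 1 of food-deprived arrays 1, 2, 3 and 5 or control arrays 3 and 4 left out (adjusted p = 0.0526 to 0.0681).

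Cacng5 had signals of 29.1, 33.9, 13.4, 10.2 and 9.68 on water-deprived arrays, of 27.1, 26.6, 24.6, 22.9 and 25.8 on food-deprived arrays and of 14.0, 16, 17.4, 9.84 and 15.1 on control arrays. Food-deprived and control arrays did not overlap (log2 difference 0.45, SE 0.171, adjusted p = 0.109), while the water-deprived arrays fell on either side by set. The array set in the fit turned the difference to -0.37 (adjusted p = 0.569). Cacng5, like Scn10a and Cacng4, had a control mean under the filter level. Cacng2 ranged over 39.7 to 75.1 on water-deprived, 43.5 to 73.9 on food-deprived and 56.1 to 68.0 on control arrays. Cacng3 ranged over 15.2 to 53.6 on water-deprived, 29.3 to 74.5 on food-deprived and 1.65 to 124 on control arrays, the widest spread of any channel gene among controls (SD 1.1 on the log2 scale). Cacng1, Cacng6, Cacng7 and Cacng8 lay below the filter.

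Of the HCN genes, Hcn2 and Hcn3 were tested and Hcn4 lay below the filter, with signals of 0.858 to 2.29. Hcn2 (1370966_at), a broadly expressed HCN channel strongly gated by cyclic AMP, had signals of 49.1, 57.4, 56.2, 78.9 and 49.4 on water-deprived arrays, of 95.5, 100, 88.2, 82.6 and 82.0 on food-deprived arrays and of 68.1, 93.0, 96.9, 85.4 and 43.7 on control arrays. All 5 water-deprived arrays, of both array sets, lay below all 5 food-deprived arrays, and 4 of the 5 controls were above the mean of the water-deprived arrays. The means were 58.2 ± 12.2 in water-deprived, 89.7 ± 7.98 in food-deprived and 77.4 ± 21.9 in control rats (SD, n = 5 each). The log2 difference between water and food deprivation was -0.52 (SE 0.160, 1.44-fold lower), which did not pass over all probe sets (adjusted p = 0.137). It was -0.61 with the array set in the fit (adjusted p = 0.384), and it lay between -0.61 and -0.48 with 1 array left out. Water deprivation against control gave -0.31 (SE 0.160, adjusted p = 0.752). Hcn3 ranged over 34.6 to 53.6 on water-deprived, 42.6 to 62.2 on food-deprived and 24.8 to 53.3 on control arrays.

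**Figure D2:**
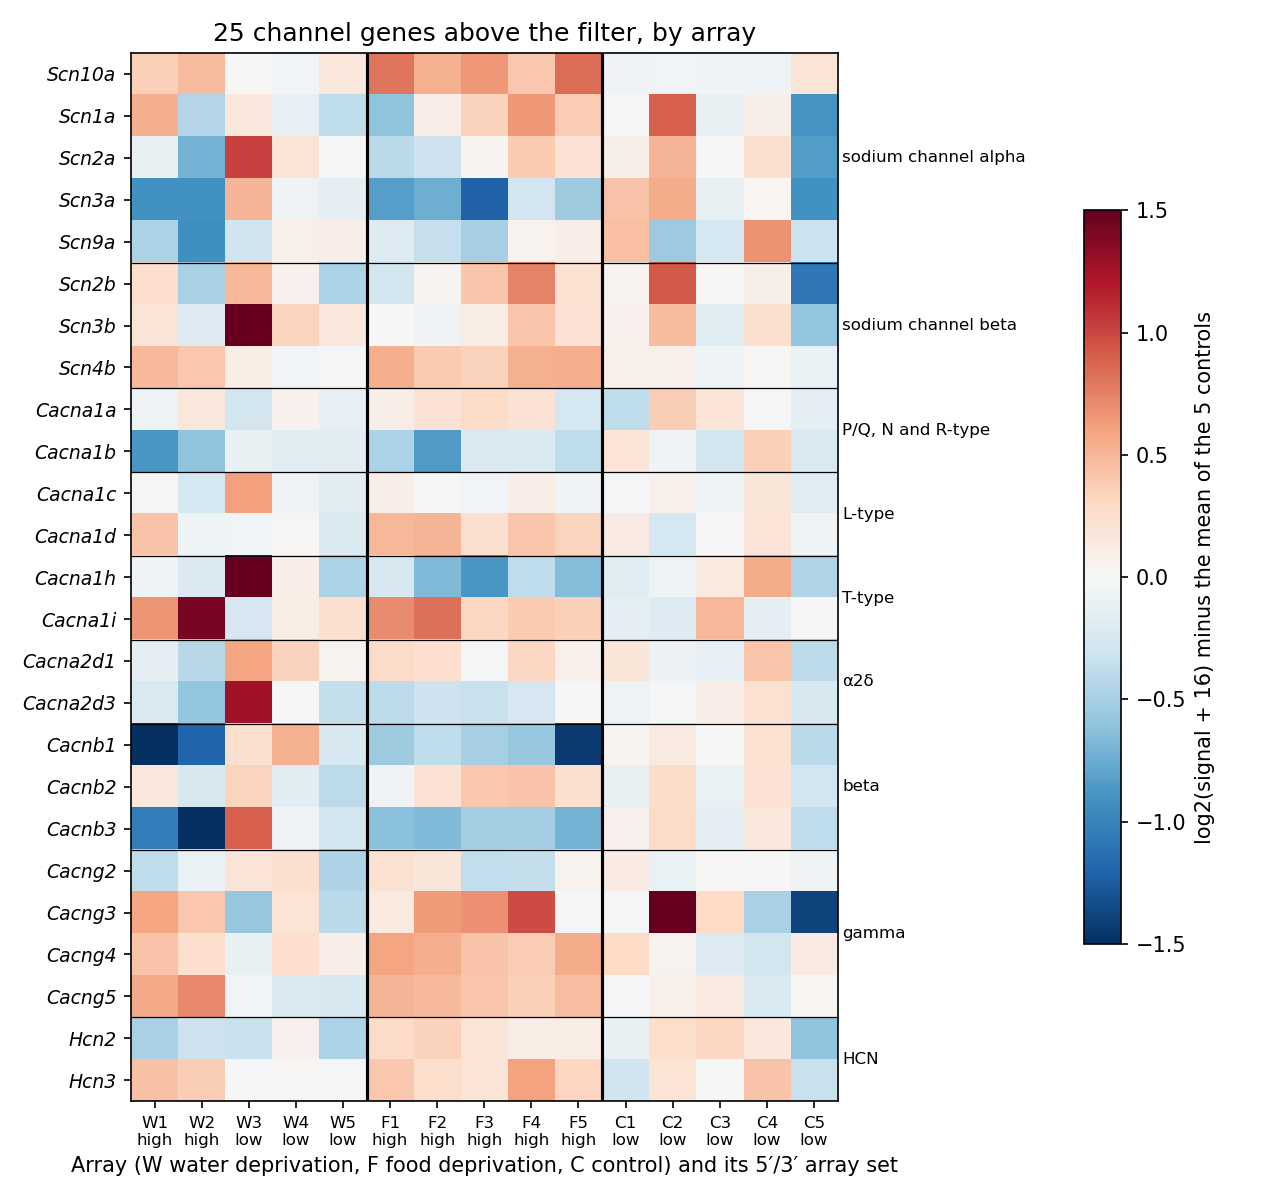
Difference of log2(signal + 16) from the mean of the 5 controls for the 25 tested channel genes (rows, by role) on the 15 arrays (columns: W water deprivation, F food deprivation, C control, with the 5′/3′ array set below each name). Cacnb1 and Cacnb3 are low and Cacng5 is high on water-deprived arrays 1 and 2 as on most food-deprived arrays, and water-deprived array 3 and control array 5 stand apart in many rows.

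In water deprivation against control, no channel gene passed with limma (0 of 25, against a background of 0.00869% of all genes higher and 0% lower), and 1 had an unadjusted p under 0.05, against 6.49% of all probe sets. Of the 25 differences, 14 were above 0, with a median of 0.023, against 5745 of the 11514 genes tested and a median of -0.00046. The median turned to -0.12 without water-deprived array 3, -0.029 without water-deprived array 1 and -0.086 without control array 5. No channel gene had water-deprived and control arrays that did not overlap, a pattern seen higher in 0.46% and lower in 0.33% of all genes. Adding the array set left 0 that passed, against 0.0434% of all genes higher and 0% lower, and 1 with an unadjusted p under 0.05, Scn3b, against 5.96% of all probe sets. Among cell markers, 0 of 9 microglia differences (median -0.237), 1 of 11 oligodendrocyte (-0.232) and 7 of 7 choroid plexus (0.273) were above 0. Neuron markers had 6 of 18 above 0 (median -0.0532), neighbouring hypothalamus markers 0 of 4 (-0.698) and subfornical organ markers 3 of 4 (0.689). None passed without the set, and 1 subfornical organ marker passed as higher with it. Their part in the channel values was not tested.

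In food deprivation against control, 3 of the 25 channel genes were higher and 0 lower, where 3.15% of all genes were higher and 2.63% lower. Of the 3, Scn10a and Cacng4 reached the test through their higher arrays, so the count is no support for a shift of the channel genes, and it was 1 with the filter at the 50th percentile. The unadjusted p was under 0.05 in 8, against 26.3% of all probe sets. The median difference was 0.17, with 16 of 25 above 0, against a median of 0.027 over all genes. Without control array 5 the median was -0.0066, with 12 of 25 above 0. After median centring it was 0.068, against -0.075 over all genes. The arrays of the 2 groups did not overlap in 6 genes, Scn10a, Scn4b, Cacna1d, Cacng4 and Cacng5 being higher and Cacnb3 lower in food-deprived rats, a pattern seen higher in 6.86% and lower in 5.25% of all genes. Of these, Scn10a, Cacng4 and Cacng5 had control means under the filter level, so this count is no support for a shift either. With the array set in the fit, 0 of 25 passed, 4 had an unadjusted p under 0.05 (8.64% of all probe sets), and 14 changed sign. With this term 0% of all genes passed in either direction. The 4 marker genes of neighbouring hypothalamus (Avp, Oxt, Pmch and Hcrt) summed to 238 to 265 on food-deprived arrays, against 981 to 3663 on control arrays, and 3 of the 4 passed as lower. The 18 tested of 19 neuron markers (Gad2 was below the filter) did not pass in either direction, and the list summed to 10320 to 15744 on food-deprived arrays, against 6865 to 18924 on control arrays. Among vascular markers 9 of 11 differences were above 0 and 2 passed as higher, and the list summed to 1063 to 1382 on food-deprived arrays, against 879 to 1138 on control arrays. Oligodendrocyte markers had 10 of 11 above 0 (median 0.56) and choroid plexus markers 6 of 7 (median 0.69), and none of either list passed. With the array set in the fit these medians were -0.01 and -1.16. The hypothalamus median went from -2.79 to -0.0999, the neuron median from 0.069 to 0.32 and the vascular median from 0.17 to 0.032. With this term no marker of these lists passed. The part of these differences in the channel values was not tested.

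**Figure D3:**
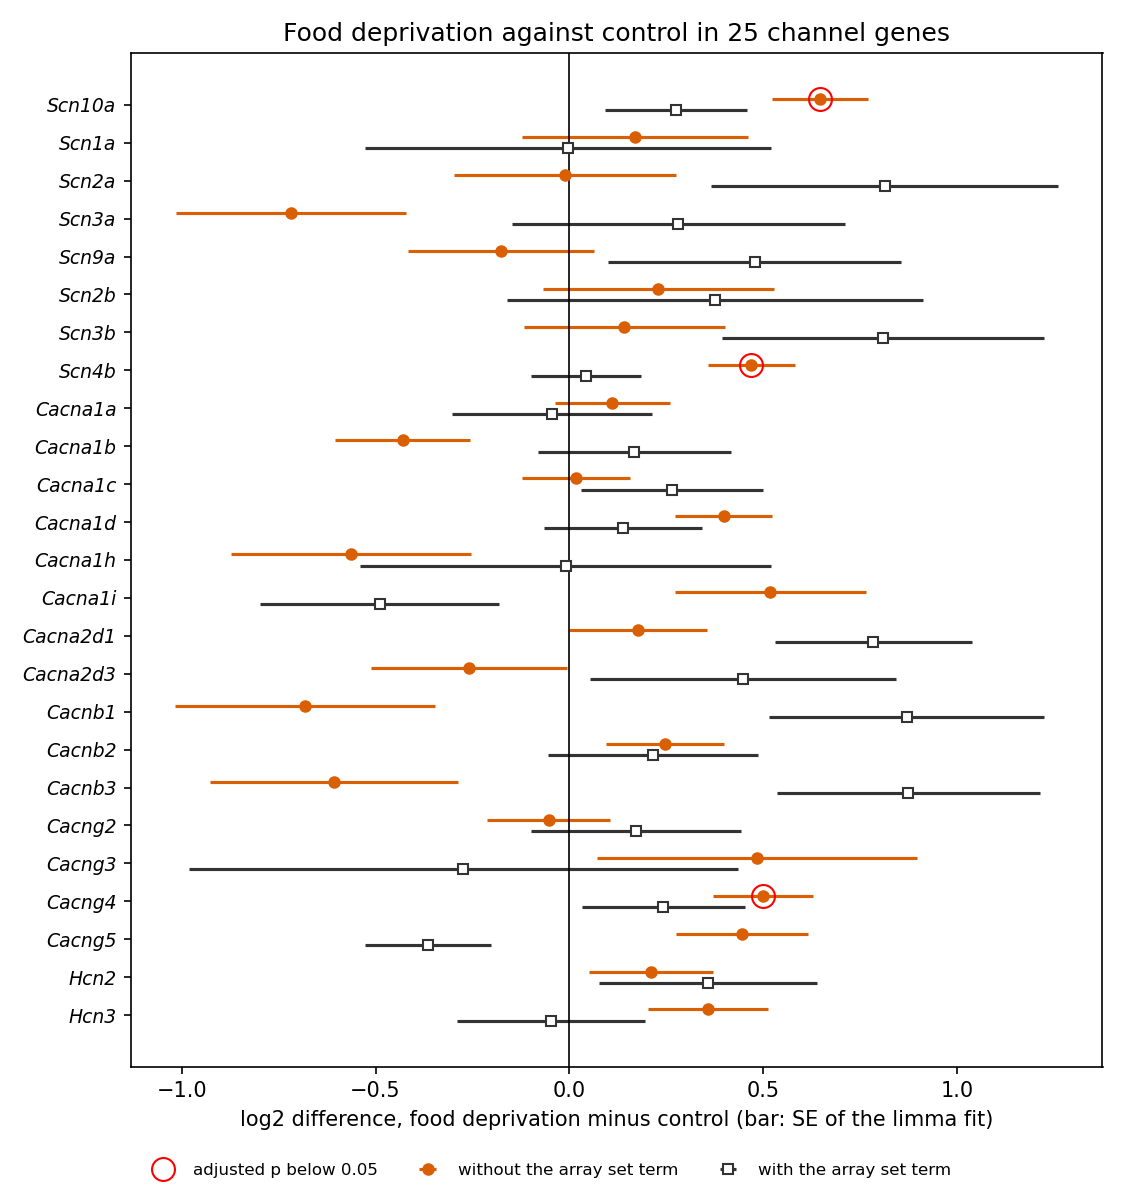
Log2 difference of food deprivation minus control for the 25 tested channel genes, with bars for the SE of the limma fit, without the array set term (filled circles) and with it (open squares). The 3 circled genes passed the test without the term, none did with it, and 14 of 25 changed sign.

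Between water and food deprivation, 0 of 25 channel genes passed, where 0.0955% of all genes were higher and 0% lower, and 6 had an unadjusted p under 0.05, against 15.8% of all probe sets. The median was -0.12, with 9 of 25 above 0, against -0.022 over all genes. Hcn2 was the only channel gene whose groups did not overlap, a pattern seen higher in 1.36% and lower in 1.81% of all genes. Beside it, the 4 markers of neighbouring hypothalamus were all above 0 (median 2.0) and all 11 oligodendrocyte markers below 0 (median -0.71, and -0.455 with the array set in the fit). Neuron markers had 6 of 18 above 0 (median -0.18, and -0.259 with the set). Astrocyte markers had 2 of 10 (median -0.222), microglia markers 0 of 9 (median -0.255) and choroid plexus markers 2 of 7 (median -0.37). Subfornical organ markers had 3 of 4 above 0 (median 0.676). None of these markers passed, and their part was not tested. Scn10a was lower on 4 of 5 water-deprived arrays than on any food-deprived array (log2 difference -0.46, SE 0.124, adjusted p = 0.110). Scn3a had a difference of 0.41 (SE 0.296, adjusted p = 0.524), and -0.19 with the array set in the fit. Leaving out a single water-deprived array let 1 gene pass, Cacna1d without array 1 and Scn10a without array 2 (adjusted p = 0.0421). Once the array set was added, 0 passed and 5 had an unadjusted p under 0.05, against 10.0% of all probe sets.

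The array sets themselves, compared through the water-deprived arrays 1 and 2 against 3, 4 and 5 with the groups in the fit, differed in 5 of the 25 channel genes. Cacng5, Cacna1i and Scn4b were higher and Cacnb1 and Cacnb3 lower in the high set, where 6.51% of all genes were higher and 8.09% lower. On every low-set array Cacng5 lay under the filter level of 18.58, and it passed the filter through its high-set arrays. The count is therefore no support for a shift of the channel genes. The log2 differences were 0.81 for Cacng5 (SE 0.134, adjusted p = 0.00176), 1.01 for Cacna1i (SE 0.253, adjusted p = 0.0161) and 0.43 for Scn4b (SE 0.117, adjusted p = 0.0243). They were -1.55 for Cacnb1 (SE 0.292, 2.94-fold lower, adjusted p = 0.00376) and -1.48 for Cacnb3 (SE 0.278, 2.79-fold lower, adjusted p = 0.0038). The count lay between 2, without water-deprived array 2, and 7 with 1 array left out. Marker lists differed between the same arrays. Hypothalamus markers summed to 371 and 310 on water-deprived arrays 1 and 2, against 3104, 3602 and 1005 on arrays 3 to 5, and all 7 tested choroid plexus markers had differences above 0 for the high over the low set (median 1.58). Their part in the channel differences was not tested. Since these 5 arrays share their labelled treatment, the set and any other difference between the pools cannot be told apart.

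**Figure D4:**
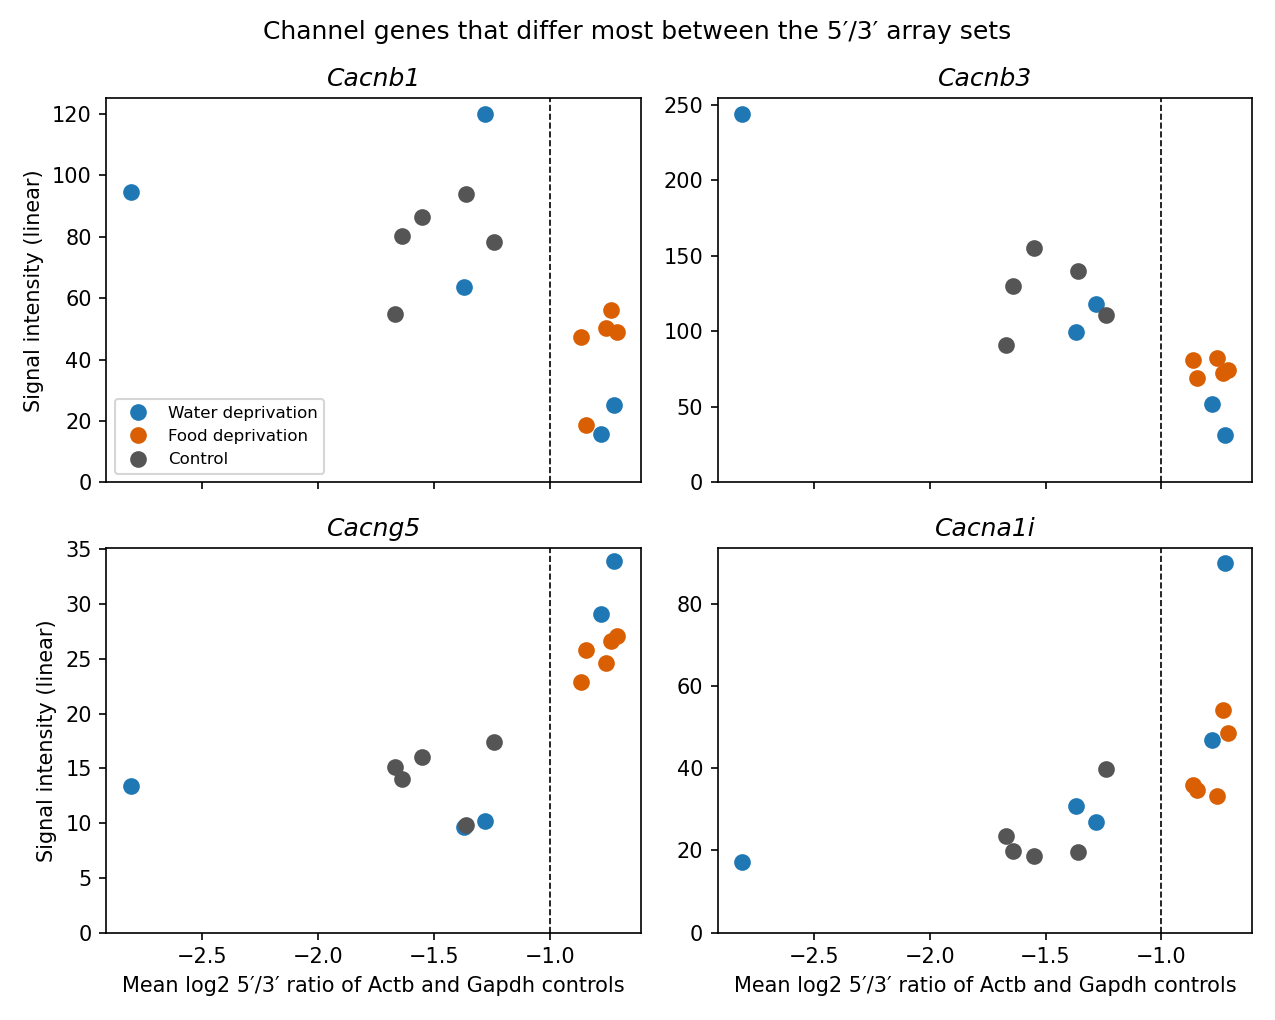
Signal intensity of Cacnb1, Cacnb3, Cacng5 and Cacna1i on each array against the mean log2 5′/3′ ratio of the Actb and Gapdh control probe sets, coloured by group, with a dashed line at the split of -1 between the array sets. Water-deprived arrays 1 and 2, right of the line, lie with the food-deprived arrays or beyond them, and arrays 3 to 5, left of it, lie near the controls or beyond them.

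Where a gene had several probe sets, they often went apart. Of the 8 channel genes with 2 or more tested probe sets, 6 had differences of both signs between food deprivation and control (75.0%), against 50.7% of 3040 genes of that kind in all. For Cacna1h the second probe set, with signals of 21.5, 19.1, 5.53, 15.4 and 15.6 on water-deprived, 38.2, 50.6, 33.6, 25.6 and 34.0 on food-deprived and 17.3, 15.5, 25.8, 17.2 and 13.0 on control arrays, was higher under food deprivation (log2 difference 0.63, SE 0.160, adjusted p = 0.0273), while the brighter one had a difference of -0.56 (SE 0.309, adjusted p = 0.262). Most control and water-deprived signals of the second probe set lay under the filter level of 18.58, and it passed the filter through its higher arrays. Its array set difference, high minus low, was 0.39 (SE 0.211, adjusted p = 0.224). Between water and food deprivation the second and the brighter probe set of Cacna1h had differences of -0.74 (adjusted p = 0.0613) and 0.76. The second probe set of Cacnb1 was likewise higher under food deprivation (0.50, SE 0.146, adjusted p = 0.0464), against -0.68 for the brighter one. Over all probe sets, 4.77% passed as higher and 3.76% as lower in this comparison. The second probe set of Scn3b had -0.56 (SE 0.242, adjusted p = 0.158), against 0.14 for the brighter one. Scn10a, Scn4b, Cacng4 and Hcn2 each rest on a single tested probe set.

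**Figure D5:**
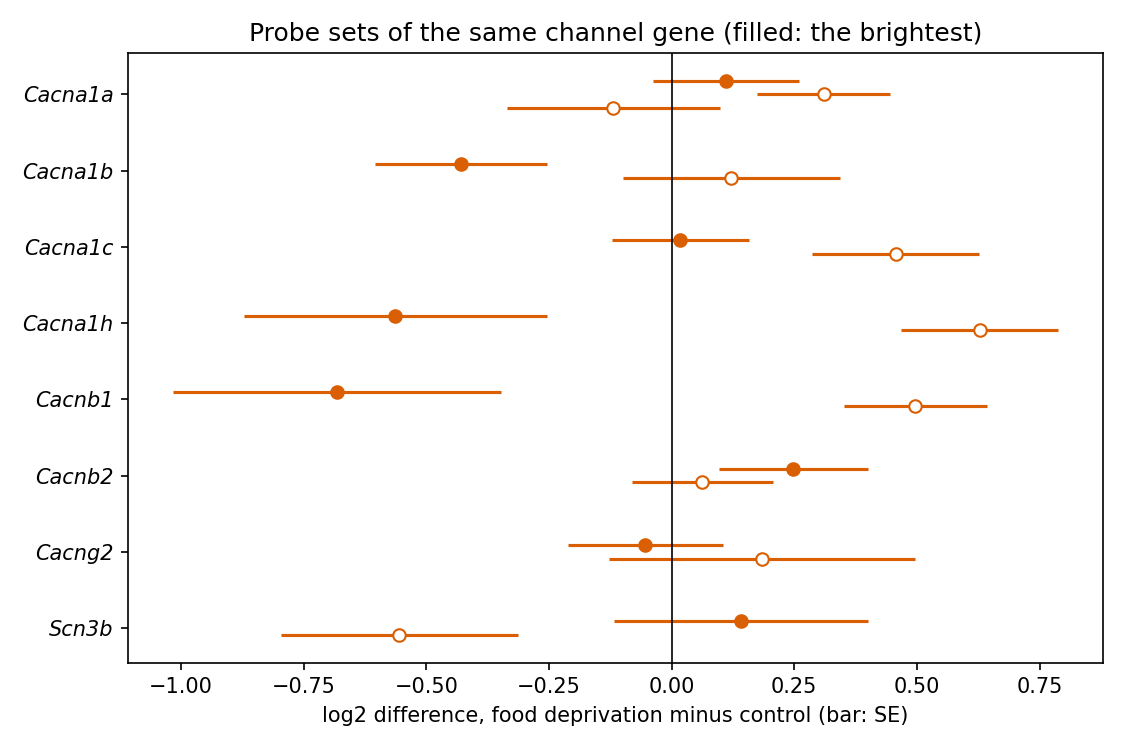
Log2 difference of food deprivation minus control for each tested probe set of the 8 channel genes with more than 1, with bars for the SE and filled points for the brightest probe set of a gene. In Cacna1h and Cacnb1 the probe sets of the same gene lie on opposite sides of 0.

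Spread between pools was wide for these genes. The median SD on the log2 scale within a group was 0.409 in water-deprived, 0.195 in food-deprived and 0.287 in control arrays for the 25 channel genes, against 0.252, 0.155 and 0.205 for all genes tested. Water-deprived array 3 was the highest of its group in 11 of the 25 channel genes (44.0%), against 25.6% of all genes. Control array 5 was the lowest control in 16 (64%), against 28.9% of all genes. The summed neuron markers were also lowest among controls on array 5 (6865) and highest on array 2 (18924), and among water-deprived arrays highest on array 3 (15292). Whether neuron content accounts for the spread of the channel genes was not tested.

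Genes of proteins that bind, anchor or regulate these channels were read beside them. Of 36 such partners, 34 had a probe set and 30 were tested. Stac2, an adaptor that binds L-type channels, had signals of 45.0, 59.9, 29.3, 31.6 and 41.0 on water-deprived arrays, of 51.9, 64.8, 49.8, 43.7 and 59.0 on food-deprived arrays and of 31.7, 24.9, 28.8, 25.9 and 31.4 on control arrays. It was the only partner that passed, rising by 0.64 under food deprivation (SE 0.135, adjusted p = 0.0113), where 3.15% of all genes passed as higher, and every food-deprived array was above every control. With the array set in the fit its difference was 0.19 (adjusted p = 0.773). Against control, 18 of the 30 partners had differences above 0 under water deprivation (median 0.11) and 16 under food deprivation (median 0.00050), beside medians of -0.00046 and 0.027 over all genes. Between water and food deprivation, 14 were above 0 (median -0.035), beside -0.022 over all genes. Fgf13, an intracellular partner of sodium channels, had the partners' smallest unadjusted p between water deprivation and control, with signals of 562, 556, 1230, 605 and 663 on water-deprived arrays, against 534, 260, 445, 612 and 446 on control arrays. Its difference of 0.62 (SE 0.218, adjusted p = 0.719) did not pass.

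The 13 channel genes below the filter were measured and not tested in the comparisons above. When all probe sets were fitted without a filter, 4 of 38 channel genes passed as higher under food deprivation, Cacna1e being added, against 2.56% of all genes. Cacna1e, the R-type pore, had signals of 20.3, 12.6, 22.5, 15.6 and 14.5 on food-deprived arrays, against 5.08, 2.65, 3.27, 7.45 and 2.07 on control arrays. The groups did not overlap (log2 difference 0.72, SE 0.172, adjusted p = 0.0252), and water-deprived arrays 1 to 5 had 13.8, 18.7, 10.8, 1.53 and 1.75. Its mean signal of 10.2 lay under the filter level, and water-deprived arrays 1 and 2, of the high set, were the highest of their group. Cacna1e was not fitted with the array set, and the count of 4 is no support for a shift of the channel genes.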

How the data were processed

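Linear signal intensities of the probe sets were deposited by the authors, who used GCOS 1.2 per the submitters' processing notes. Tested on the table, every array had the same mean of 100 after trimming 2% at each end, so no further normalization was applied. Dim signals still differed between the array sets, with a 25th percentile of 15.7 to 17.3 on high-set and 12.3 to 14.2 on low-set arrays. The part of this shift in the differences of dim genes was not tested. Detection calls were not used. The authors' deposited intensities were converted here to log2(signal + 16). Of 31099 probe sets, 57 were controls, 20826 had a single gene symbol, 436 several and 9780 none. Probe sets were tested when their mean exceeded the 30th percentile (log2 5.112), which left 21741. All 54 member probe sets matched RefSeq by gene ID.

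Groups followed the labels (5 arrays each). The 3 groups were fitted together in R 4.3.3 with limma 3.58.1 (12 residual degrees of freedom, variance trend, two-sided, Benjamini-Hochberg over all probe sets tested, threshold 0.05). SE is that of the fit. Arrays were split at a mean log2 5′/3′ ratio of -1, and the set was a term in an alternative fit. The fit was tested on simulated data. Alternatives covered normalization, offset, filter, gene summary, replicate block, array set, ratio term and leaving out each array. Number of arrays limits the precision. Figures used Python 3.11.15 and matplotlib 3.10.9.

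Genes were named with values on every array if they passed in any comparison, or were among the 3 higher and 3 lower with the smallest unadjusted p in a comparison. The member of each role with the highest mean was also named, in some cases by the range of each group only. Genes with groups that did not overlap were added to those with values on every array after their values were seen. The members, marker lists and partner list were chosen with earlier results of these data known.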

Additional observations from a re-analysis of the deposited data

Results flagged for a closer look

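In 4 of 75 groups of 5 arrays (25 channel genes in 3 groups), a single array lay far from the others, its gap to the nearest being more than 0.71 of the range of the group. Chance gives such a gap in about 1 in 20 groups. The lowest food-deprived value of Cacnb1 was 18.6 on array 5, with the next at 47.3, a gap of 0.821 of the range. The highest water-deprived value of Cacna1h was 162 on array 3, with the next at 45.9 (0.726). The highest control value of Scn10a was 20.4 on array 5, with the others at 14.7 to 14.8 (0.968). The highest control value of Cacna1i was 39.9 on array 3, with the next at 23.6 (0.721). Gaps were taken on the log2 scale.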

How the results depend on the processing

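Among the channel genes in food deprivation against control, the 3 that passed became 1 with a filter at the 50th percentile and 1 with the mean of all probe sets of a gene. They became 8 (6 higher, 2 lower) when only the 10 arrays compared were fitted, where 8.02% of all genes passed as higher and 6.72% as lower, and 0 with either the 5′/3′ ratio or the array set as a term. Leaving out 1 array gave 1 (without control array 3) to 4, and 0 to 0 with the array set in the fit. Water against food deprivation gave 0 to 1, water deprivation against control 0 to 0, and the array sets 2 to 7. Over all genes the split of higher and lower in food deprivation against control was 363 to 303 as deposited and 187 to 478 after median centring, while the 3 channel genes that passed were higher under both. Signs reversed with the array set in the fit for Cacna1b (0.17), Cacnb1 (0.87), Cacnb3 (0.88), Scn3a (0.28) and Cacng5 (-0.37) in food deprivation against control, for Cacnb1 in water deprivation against control (0.18) and for Scn3a (-0.19) and Cacna2d3 (-0.15) between water and food deprivation. The 5′/3′ ratio term reversed Cacnb3 (0.088) and Cacna2d3 (-0.18), and arrays within a set alone gave 0.18, -0.19 and -0.15 for Cacnb1, Scn3a and Cacna2d3 in these last comparisons. With 1 array left out, Cacna2d3 ranged from -0.033 to 0.43, and Scn4b, with the set in the fit as well, from -0.0040 to 0.087 (-0.0040 and -0.00054 without water-deprived arrays 3 and 2, the only values below 0). The cause of these changes was not tested. A fit with the replicate number as a block gave 3, 0 and 0 genes passing in food deprivation against control, water deprivation against control and water against food deprivation. Deviations of same-numbered arrays from their group means correlated between -0.361 and 0.365. They were not set against those of differently numbered arrays, so whether the numbers pair the arrays was not tested.

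Dim probe sets limit the lowest genes, of which 13 lay below the filter. The water-deprived arrays span both array sets with 2 and 3 arrays, so values with the set in the fit have wide errors.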
